A study of Mus musculus with 6 samples.

Results

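Genes of the matrix metalloproteinases (MMPs) and of their inhibitors, the tissue inhibitors of metalloproteinases (TIMPs), were examined in RNA-seq libraries of mouse thymoma cells. The set held 10 genes chosen by symbol, of 25001 loci in the deposited files, 22601 of which carry a symbol. It comprised 8 MMP genes (Mmp3, Mmp10, Mmp11, Mmp12, Mmp13, Mmp14, Mmp15 and Mmp28) and 2 inhibitor genes (Timp1 and Timp3), and each symbol had 1 row in every file.

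MMPs are zinc-dependent endopeptidases that cleave collagens, proteoglycans and other proteins of the extracellular matrix and cell surface. They are made as inactive proenzymes, which other proteases such as plasmin, furin or further MMPs activate by removing the propeptide, and TIMPs block the active enzymes by occupying the catalytic site. Stromelysins such as Mmp3 and Mmp10, collagenases such as Mmp13 and macrophage elastase are secreted and are classical targets of phorbol esters and AP-1. AP-1 is the dimeric transcription factor of Fos and Jun proteins. The membrane-type MMPs, in contrast, remain anchored to the cell.

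427 cells are a mouse thymoma cell line (427.1.86) that expresses epithin/PRSS14, a membrane serine protease encoded by St14, and the study asked what its liberated intracellular domain (EICD) does to gene expression. Wild-type 427 cells stably carrying the empty pSUPER vector, and 427 cells labelled as an SPPL2b knockdown (SP2bKD), were deprived of serum for 2 h and then given DMSO or 1 µM of PMA for 2 h. PMA is a phorbol ester that activates protein kinase C and sets off shedding of epithin/PRSS14. Cells labelled SP2bKD were also transfected with GFP vector alone or with GFP vector plus FLAG-tagged EICD and sorted for GFP, and for these libraries the labels give neither PMA nor DMSO. There was 1 library for each of the 6 conditions, so that no difference given here has a replicate check. For the 4 SP2bKD libraries an siRNA against SPPL2b is named in the labels, while the methods of the study describe stable shRNA clones and name a single clone, SP2bKD-10, for the transfection.

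Values are FPKM, that is, fragments scaled to the length of the transcript and to the fragments of the library. The estimated depth was from 25800000 to 30400000 fragments per library, and 10555 to 10873 loci reached an FPKM of 1. The study presents its clones as SPPL2b knockdowns by real-time PCR of the mRNA, and reports less PMA-induced EICD in them. In the FPKM, the targeted gene, Sppl2b, was not lower in the libraries labelled SP2bKD. Its FPKM was 9.90 and 6.86 in 427 cells with DMSO and PMA, 13.4 and 9.37 in the SP2bKD libraries with DMSO and PMA, and 11.4 and 13.2 in the sorted cells without and with EICD. It shares no annotated exon base with Lsm7, which overlaps it on the opposite strand. Hence every difference between the lines is a difference from the library labelled SP2bKD. All 6 epithelial markers examined were at an FPKM of 1 or more in every library, with a summed FPKM from 6321 to 15017. The T cell markers Cd3d, Cd3e and Cd4 were listed at 0 in all 6 libraries, and only Rag1, an assembled locus, reached 1. Among the 7 macrophage markers Adgre1 was listed at 0 throughout and 3 (Cd68, Csf1r and Cd14) reached 1, with sums from 7.07 to 12.2, and among the 7 fibroblast markers Lum was at 0 throughout, with sums from 0.439 to 2.17. In such bulk libraries, fewer cells of a type and less RNA per cell cannot be told apart.

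Of the 10 genes, 4 lie together on chromosome 9, and their promoters are shown because they are the ones among the set that hold the AP-1 letters TGAGTCA or the reverse complement TGACTCA. The 120 bases before the RefSeq transcript start are given from 5′ to 3′ on the plus strand of GRCm38.p6, with the AP-1 letters in capitals.
Mmp13 (chr9:7272394-7272513): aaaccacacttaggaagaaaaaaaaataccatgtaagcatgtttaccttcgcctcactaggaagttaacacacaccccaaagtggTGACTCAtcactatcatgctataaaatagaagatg
Mmp12, second start (chr9:7347254-7347373): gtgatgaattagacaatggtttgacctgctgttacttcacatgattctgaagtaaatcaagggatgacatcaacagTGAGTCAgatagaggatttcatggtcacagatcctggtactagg
Mmp3 (chr9:7445702-7445821): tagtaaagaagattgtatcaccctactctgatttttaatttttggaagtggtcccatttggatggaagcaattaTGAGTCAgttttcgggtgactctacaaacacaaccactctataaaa
Mmp10 (chr9:7502222-7502341): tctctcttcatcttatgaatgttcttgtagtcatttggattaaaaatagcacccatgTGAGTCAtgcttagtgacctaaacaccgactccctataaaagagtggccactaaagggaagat
The letters began 35 bases before the start of Mmp13, where they are the reverse complement, 44 bases before the second annotated start of Mmp12, 46 before Mmp3 and 63 before Mmp10. No match lay in the window of the first start of Mmp12, nor in those of Mmp11, Mmp14, Mmp15, Mmp28, Timp1 and Timp3. Over windows from 250 bases before to 50 after the start, 4 of the 11 windows of these genes (36.4%) held the letters on either strand, against 5.20% of all 32851 mouse RefSeq windows. Per gene, the letters were found for 40% of the 10 genes, for 5.95% of 27025 genes and for 4.64% of the 8204 genes at an FPKM of 1 or more in a library. Both spellings are the same site read from either strand, and a match describes letters and not a bound factor. The letters also lay before starts of Mmp1a, Mmp1b and Mmp7, MMP genes of the same chromosome 9 group outside the set. Mmp7 was listed at 0 in all libraries and Mmp1a at 0.0202 or less, so the match does not mark expressed genes alone. The 4 matching genes of the set are neighbours, so their share is not that of independent genes.

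**Figure D1:**
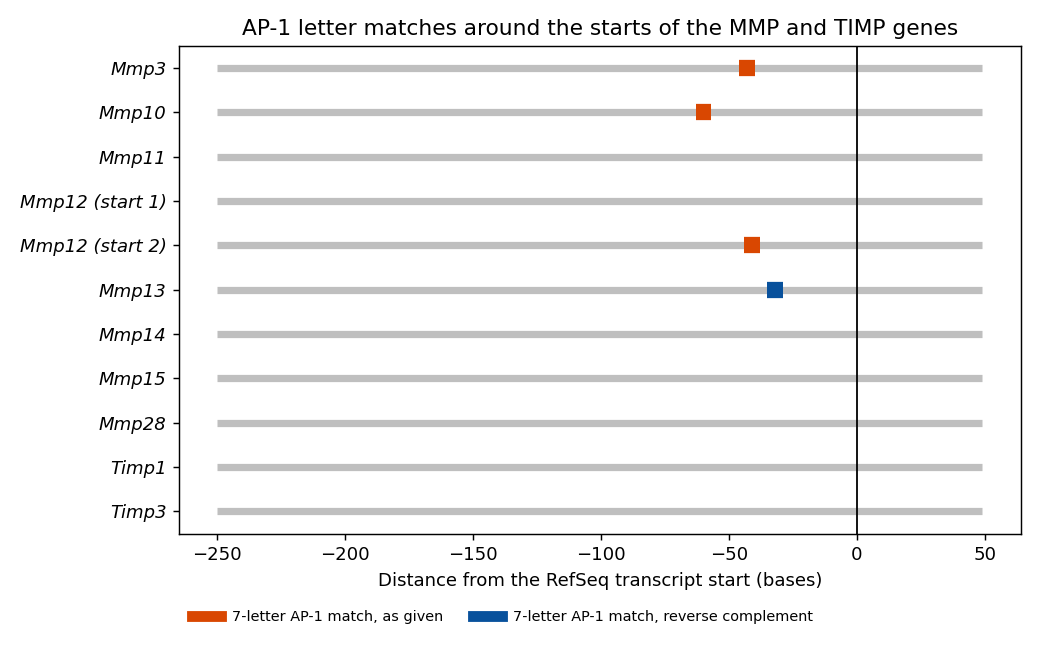
Position of the 7-letter AP-1 match (coloured blocks) in the RefSeq promoter windows (grey bars) of the 10 genes, with the distance from the transcript start in bases on the x axis. The 4 matches lie between 63 and 35 bases before the starts of Mmp10, Mmp3, Mmp12 and Mmp13, and the other windows hold none.

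The levels of the stromelysins came first. Mmp3 (stromelysin-1, chromosome 9, 7445822 to 7455972, plus strand, GRCm38), which cleaves proteoglycans and activates other proMMPs, was at 0.157 FPKM with DMSO and 2.08 with PMA in 427 cells, and in the libraries labelled SP2bKD at 0.0662 with DMSO, 1.34 with PMA, 0 with GFP and 0.0419 with GFP plus EICD. Only the PMA libraries reached 1, and the other 4 values rest on an estimated 7.11 fragments or fewer. Mmp10 (stromelysin-2, chromosome 9, 7502352 to 7510238, plus strand) was at 0.184, 3.10, 0.182, 0.591, 0 and 0.0650 in the same order. The 427 library with PMA stood above the rest, and the others were all under 1. Mmp11 (stromelysin-3, chromosome 10, 75922926 to 75932502, minus strand), which furin activates inside the cell, was at 12.7, 3.69, 14.5, 4.46, 7.79 and 11.4. Its lowest values were those of the PMA libraries, and it reached 1 in every library.

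Mmp13 (collagenase-3, chromosome 9, 7272514 to 7283333, plus strand), which cuts fibrillar collagen, was at 0.402, 7.35, 0.443, 3.55, 0.301 and 2.39. The libraries with PMA and the one with EICD were high, and the DMSO and GFP libraries were all under 1. Mmp12 (macrophage elastase, chromosome 9, 7344381 to 7369499, plus strand), which degrades elastin, was at 2.25, 3.61, 2.76, 2.01, 0.459 and 5.73. The lowest and the highest value both came from the sorted cells, the former with GFP and the latter with EICD.

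Among the membrane-type enzymes, Mmp14 (MT1-MMP, chromosome 14, 54430189 to 54442307, plus strand), a pericellular collagenase that also activates proMMP2, was at 44.8, 64.8, 38.4, 56.9, 36.4 and 34.4. Mmp15 (MT2-MMP, chromosome 8, 95352268 to 95374293, plus strand) was at 17.7, 9.97, 12.4, 6.21, 11.2 and 12.6. Thus the former was highest and the latter lowest in the PMA library of each line. Mmp28 (epilysin, chromosome 11, 83440768 to 83463071, minus strand), a secreted MMP of skin and other epithelia, was at 2.73, 1.83, 2.30, 1.66, 4.72 and 12.2, with both sorted libraries above the other 4. It shares 466 exon bases with 1700020L24Rik on the opposite strand, which was at 0.406, 0.601, 0.687, 0.735, 1.61 and 3.61, and since the strand of the libraries is not given in the sources used here, fragments of the shared bases cannot be told apart.

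Of the inhibitors, Timp1 (chromosome X, 20870166 to 20874735, plus strand), a secreted inhibitor of most soluble MMPs, was at 82.0, 205, 70.4, 177, 79.8 and 57.6. The PMA libraries held more than any other library of this gene, and the EICD library the least. Timp3 (chromosome 10, 86300372 to 86349506, plus strand), which is bound to the matrix and also inhibits ADAM17, a sheddase, was at 1.42, 1.30, 0.523, 0.576, 1.21 and 1.85. The SP2bKD libraries with DMSO and PMA were under 1 and the other 4 were above it. Timp3 lies inside Syn3 on the opposite strand and shares 1733 of its 8144 exon bases with it, and Syn3 was at 1.38, 1.05, 1.40, 0.846, 0.944 and 2.30.

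**Figure D2:**
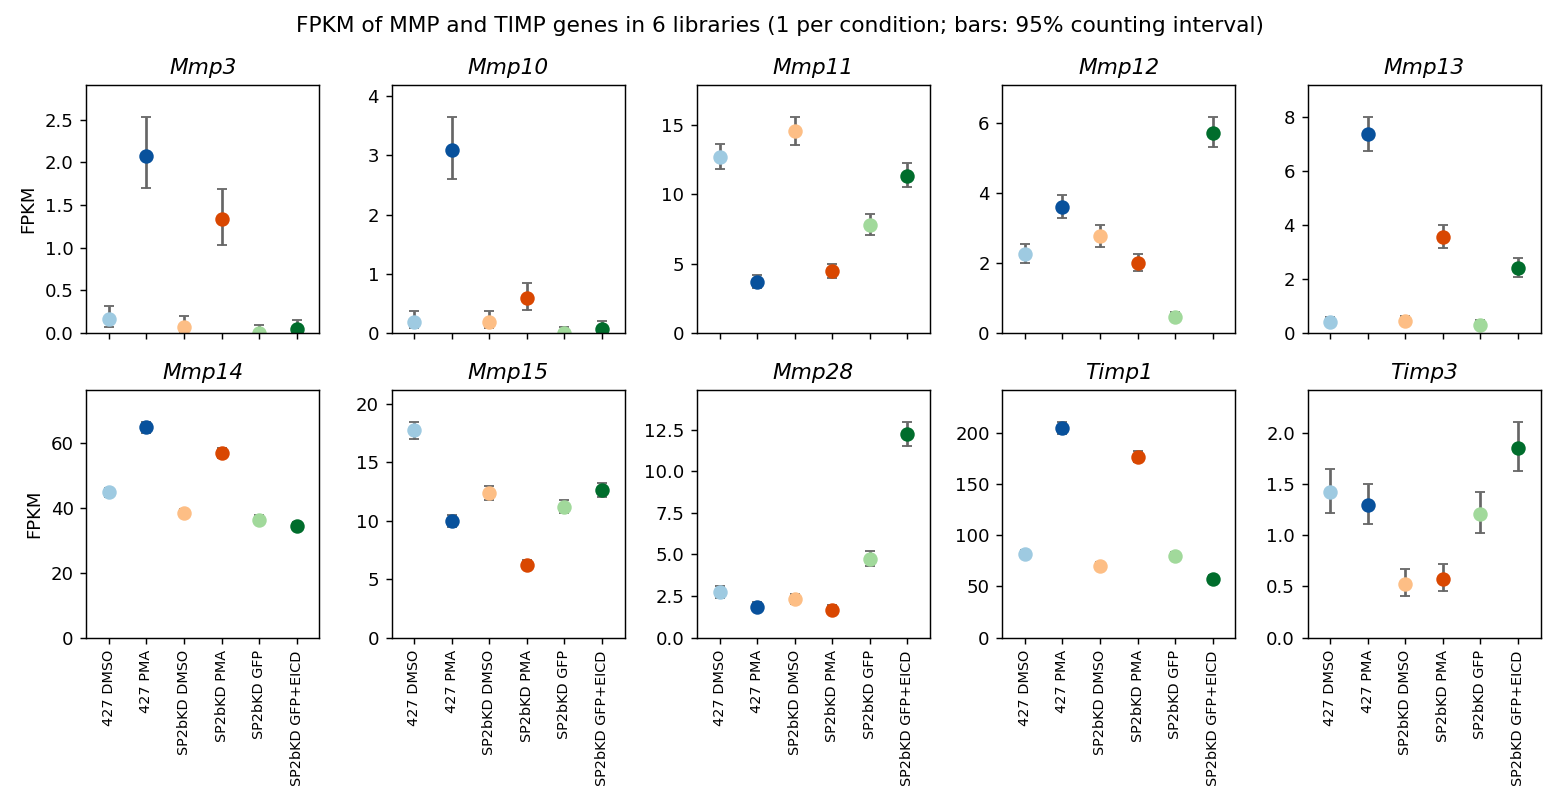
FPKM (y axis, linear and starting at 0, scaled for each gene) of the 10 genes in the 6 libraries, with 95% counting intervals as bars. Mmp3, Mmp10 and Mmp13 are highest in 427 cells with PMA, Mmp12 and Mmp28 in the sorted cells with EICD, and Timp3 is lowest in the SP2bKD libraries with DMSO and PMA.

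Thus Mmp3, Mmp10, Mmp13, Mmp14 and Timp1 were highest in 427 cells with PMA, Mmp12, Mmp28 and Timp3 in the EICD library, and Mmp11 and Mmp15 in a DMSO library. The chromosome 9 genes of the set were lowest in the GFP library. The share of all loci that were highest or lowest in these libraries is not given, so no trait of the set follows. Within each gene the libraries were ordered and neighbours compared by the counting interval of their ratio, which covers counting error only. For Mmp3 and Mmp10, the DMSO, GFP and EICD libraries next to each other in that order could not be separated at this depth. For Mmp12, the same held for 427 cells with DMSO (2.25) and SP2bKD cells with PMA (2.01), and for Mmp13 for the DMSO libraries of both lines and the GFP library (0.301 to 0.443). Among the other genes, neighbours not separated were the SP2bKD library with DMSO and the EICD library for Mmp15, the DMSO libraries of both lines and likewise the PMA libraries for Mmp28, and 427 cells with DMSO and the GFP library for Timp1. For Timp3 they were both 427 libraries and the GFP library, and the SP2bKD libraries with DMSO and PMA. For Mmp11 and Mmp14 every pair of neighbours differed by more than counting error. The Mmp11 intervals of 427 DMSO over EICD, and of SP2bKD PMA over 427 PMA, began at only 1.008 and 1.015. Those places in its order are thus not settled. For Mmp14 the intervals of SP2bKD with DMSO over GFP, and of GFP over EICD, began at only 1.003 and 1.006. The former difference changed sign under median ratio scaling, so this order is not settled.

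To describe the response to PMA in 427 cells, the library with PMA was compared with the library with DMSO. Mmp13 was 17.8-fold higher with PMA (log2 4.16, 95% counting interval of the fold 12.4 to 27.4), Mmp10 16.0-fold (4.00, 8.23 to 39.3) and Mmp3 12.5-fold (3.64, 6.29 to 34.3). Timp1 was 2.50-fold higher (1.32, 2.36 to 2.64). The opposite direction was seen for Mmp11, at 0.291 of its DMSO level (log2 -1.78, 0.249 to 0.336). A gene was counted when it differed more than 2-fold and reached an FPKM of 1 in either library compared, with 0.01 added to both. By this rule 4 of the 10 genes were higher, where 3.91% of the 10643 loci at this minimum were, and 1 was lower, where 4.67% of the loci were. Mmp3, Mmp10 and Mmp13 reached the minimum through the PMA library alone, so that they could be counted as higher but not as lower, and the same held for Mmp3 and Mmp13 in the SP2bKD libraries. The median log2 fold change was 0.61 over the 10 genes and -0.12 over all these loci. Of the marker genes, Krt18 was higher (71.6 and 171) and Rag1 lower (3.50 and 1.73) with PMA in 427 cells, and their part was not tested.

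The other 5 genes differed less than 2-fold. Mmp14 was 1.45-fold higher (log2 0.53, 1.39 to 1.51) and Mmp12 1.60-fold (0.68, 1.38 to 1.88). Mmp15 was at 0.563 of its DMSO level (-0.83, 0.527 to 0.601) and Mmp28 at 0.671 (-0.58, 0.548 to 0.815). For Timp3 the interval of the fold, 0.734 to 1.13, included no difference.

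In the SP2bKD libraries the same comparison gave 3 higher genes of the 8 at the minimum, against 3.51% of 10624 loci, and 1 lower gene, against 5.69%. Mmp3 was 17.7-fold higher (log2 4.14, 6.50 to 98.6), on an estimated 2.97 fragments in the DMSO library. Mmp13 was 7.87-fold higher (2.98, 5.55 to 12.3) and Timp1 2.51-fold (1.33, 2.36 to 2.67), and Mmp11 was at 0.307 of its DMSO level (-1.70, 0.267 to 0.350). Mmp10 was 3.13-fold higher (1.65, 1.38 to 7.89) but stayed under an FPKM of 1 in both libraries and was therefore not counted. Mmp15, at 0.503 of its DMSO level (-0.99, 0.464 to 0.545), lay just inside the 2-fold limit.

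Among the remaining genes of this comparison, Mmp14 was 1.48-fold higher (log2 0.57, 1.42 to 1.55), Mmp28 was at 0.725 of its DMSO level (-0.46, 0.586 to 0.892) and Mmp12 at 0.727 (-0.46, 0.615 to 0.857). The median was 0.05 over the 8 genes and -0.15 over all loci at the minimum. When libraries were scaled by median ratios, the medians over all loci were -0.02 in 427 cells and -0.03 in the SP2bKD libraries, and Timp1 (1.42 and 1.45), Mmp14 (0.63 and 0.69) and Mmp15 (-0.73 and -0.87) kept their directions.

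**Figure D3:**
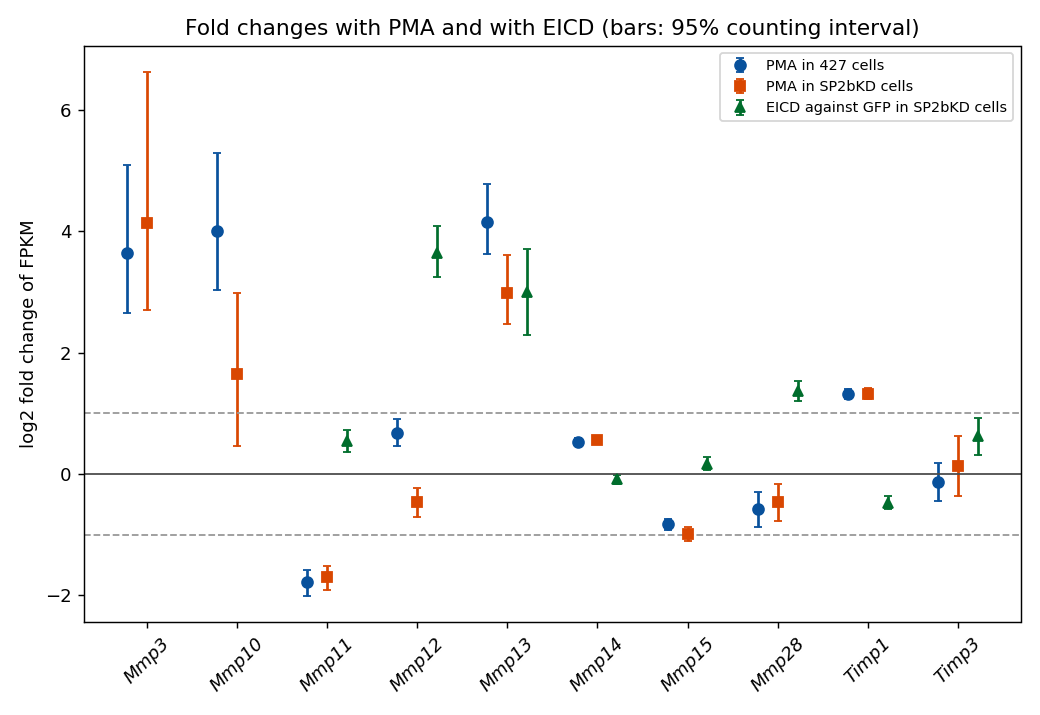
Log2 fold change of FPKM (y axis) of each gene for PMA in 427 cells (circles), PMA in the SP2bKD libraries (squares) and EICD against GFP (triangles), with 95% counting intervals as bars and dashed lines at 2-fold. Mmp13 is above the upper line in all 3 comparisons, Mmp12 and Mmp28 with EICD alone, and Mmp3 and Mmp10 have no EICD value because the GFP library lists them at 0.

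The PMA responses of the lines were then set side by side. On the log2 scale the change of Mmp10 was 2.36 larger in 427 cells, that of Mmp13 1.18 larger and that of Mmp12 1.14 larger. Mmp12 lay on opposite sides of 0. The change of Mmp3 was larger in the SP2bKD libraries (-0.50, 427 minus SP2bKD), but this direction is not settled. Its log2 counting intervals overlapped (2.65 to 5.10 in 427 cells, 2.70 to 6.62 in the SP2bKD libraries). With 1 added to both libraries its change was larger in 427 cells (1.41 and 1.13). For Timp1, Mmp14, Mmp11, Mmp28 and Mmp15 the changes of both lines differed by 0.16 or less in size. With 1 library per condition the difference between the lines was not tested.

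To see the levels behind these differences, the library labelled SP2bKD was compared with 427 cells under each treatment. With DMSO, 7 of the 10 genes were at the minimum and 1, Timp3, was lower, at 0.373 of its level in 427 cells (log2 -1.42, 0.274 to 0.494), or at -0.67 on the log2 scale and so not counted with 1 added to both libraries. None was higher. Of 10706 loci 3.11% were higher and 2.76% lower. Timp3 reached the minimum through the 427 library alone, so that it could be counted as lower but not as higher. Mmp10 and Mmp13 were under an FPKM of 1 in both DMSO libraries, with intervals of the fold, 0.330 to 3.08 and 0.623 to 1.87, that included no difference. Mmp15 was at 0.698 (-0.52, 0.655 to 0.743) of its level in 427 cells, and the other genes at the minimum lay between 0.843-fold and 1.23-fold.

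With PMA, all 10 genes were at the minimum, 3 were lower and none was higher, where 2.75% of 10518 loci were lower and 2.19% higher. Mmp10 was at 0.194 of its level in 427 cells (log2 -2.37, 0.121 to 0.283), Timp3 at 0.449 (-1.16, 0.336 to 0.582) and Mmp13 at 0.484 (-1.05, 0.418 to 0.561). Mmp13 lay close to the limit, and with 1 added to both libraries Mmp10 alone remained past it. Mmp12 was at 0.557 (-0.84, 0.475 to 0.647), Mmp15 at 0.624 (-0.68, 0.574 to 0.677) and Mmp3 at 0.644 (-0.64, 0.461 to 0.876). Mmp10 and Timp3 reached the minimum through the 427 library alone. Both comparisons share no library with each other, but each uses libraries of the PMA comparisons. The fibroblast marker Pdgfrb was at 0.445 and 0.488 in 427 cells and at 1.52 and 1.99 in the SP2bKD libraries, and the epithelial marker Krt8 was at 80.1 and 136 in 427 cells and at 311 and 403 in the SP2bKD libraries. The part of either in these differences was not tested.

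To describe the effect of EICD, the sorted cells with GFP plus EICD were compared with those with GFP alone. Mmp12 was 12.5-fold higher (log2 3.65, 9.46 to 17.1), Mmp13 7.98-fold (4.91 to 13.1) and Mmp28 2.59-fold (1.37, 2.31 to 2.90). These were 3 of the 8 genes at the minimum, and 3.58% of 10682 loci were higher. None of the 8 was more than 2-fold lower, where 0.506% of the loci were. Timp3 was 1.54-fold higher (0.62, 1.24 to 1.90), Mmp11 1.46-fold (0.54, 1.29 to 1.65) and Mmp15 1.13-fold (0.17, 1.05 to 1.21), whereas Timp1 was at 0.722 of its GFP level (-0.47, 0.669 to 0.779) and Mmp14 at 0.945 (-0.08, 0.897 to 0.994). Mmp3 and Mmp10 were listed at 0 with GFP, and rest on an estimated 1.95 and 2.88 fragments with EICD. Mmp12 and Mmp13 reached the minimum through the EICD library alone. The median over the 8 genes was 0.58, and 0.07 over all loci at the minimum. Krt8 was lower with EICD (143 and 70.2), and its part was not tested.

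The direction of several genes with EICD was not that with PMA. Mmp11 was at 0.291 and 0.307 of its DMSO level with PMA and 1.46-fold higher with EICD, Mmp28 at 0.671 and 0.725 with PMA and 2.59-fold higher with EICD, and Timp1 2.50-fold and 2.51-fold higher with PMA and at 0.722 with EICD. Mmp13 was higher in all 3 comparisons, and none of the 3 shares a library with another. The treatments also differ in time and handling, as the EICD libraries come from transfected and sorted cells.

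The GFP library was therefore set beside the DMSO library of the same line. The pair differs in transfection, sorting and, by the labels, DMSO. The serum of the sorted cells is not given in the labels or methods of the study. The parts of these cannot be told apart. Mmp12 was at 0.169 of its DMSO level (log2 -2.56, 0.120 to 0.223), the 1 lower gene of 7 at the minimum, where 4.14% of 10687 loci were lower. Timp3 was 2.29-fold higher (1.20, 1.71 to 3.14) and Mmp28 2.05-fold (1.03, 1.73 to 2.44), where 3.56% of the loci were higher, and neither was past 2-fold with 1 added to both libraries. Mmp12 reached the minimum through the DMSO library alone, so that it could only be counted as lower. Timp3 reached it through the GFP library alone, and could only be counted as higher. Mmp11 was at 0.536 (-0.90, 0.476 to 0.602), and the median was -0.08 over these genes and over all loci alike. This bears on the EICD values, since Mmp12 with EICD, 5.73, stood beside 2.76 in the DMSO library of the same line as well as beside 0.459 with GFP, and Timp3 with EICD, 1.85, beside 0.523 with DMSO. Mmp13 with EICD, 2.39, stood beside 0.443 with DMSO and 0.301 with GFP. Of the macrophage markers, Csf1r was at 6.10 in the DMSO library, 2.46 with GFP and 2.37 with EICD, Cd14 at 3.07, 2.56 and 3.07 and Cd68 at 1.25, 1.96 and 2.58, while Adgre1 was at 0 in all 3, and Pdgfrb was at 1.52, 0.0380 and 0.0735. The sum of the 6 epithelial markers, 6781, 15017 and 10856, was mostly Krt5 (4246, 10705 and 7993) and Krt14 (1785, 3820 and 2456), while Krt8 (311, 143 and 70.2), Krt18 (89.6, 49.5 and 41.2) and Epcam (209, 153 and 140) were lower in the sorted cells and Cdh1 was at 141, 147 and 156. The part of these markers in the differences was not tested.

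The positions of the chromosome 9 genes were examined next. Over 427 kb, 10 MMP genes lie in the order Mmp13, Mmp12, Mmp1b, Mmp3, Mmp1a, Mmp10, Mmp8, Mmp27, Mmp20 and Mmp7, all on the plus strand except Mmp1b. Their FPKM summed to 2.99 and 17.6 in 427 cells with DMSO and PMA, to 3.52 and 7.84 in the SP2bKD libraries with DMSO and PMA, 0.760 with GFP and 8.31 with EICD. Most of the sum came from Mmp13, Mmp12 and, with PMA, Mmp10 and Mmp3, and the genes from Mmp8 to Mmp7 were at 0.0176 or less in every library. Neighbours within the group moved alike in part only. Mmp13, Mmp1b, Mmp3 and Mmp10 were highest in 427 cells with PMA, whereas Mmp12, which lies between Mmp13 and Mmp1b, was highest with EICD. Mmp13 and Mmp12 were both higher with EICD than with GFP (7.98-fold and 12.5-fold). Mmp1b overlaps the end of Mmp12 on the opposite strand and shares 157 exon bases with it, and was at 0, 1.44, 0.0499, 0.360, 0 and 0.0380.

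**Figure D4:**
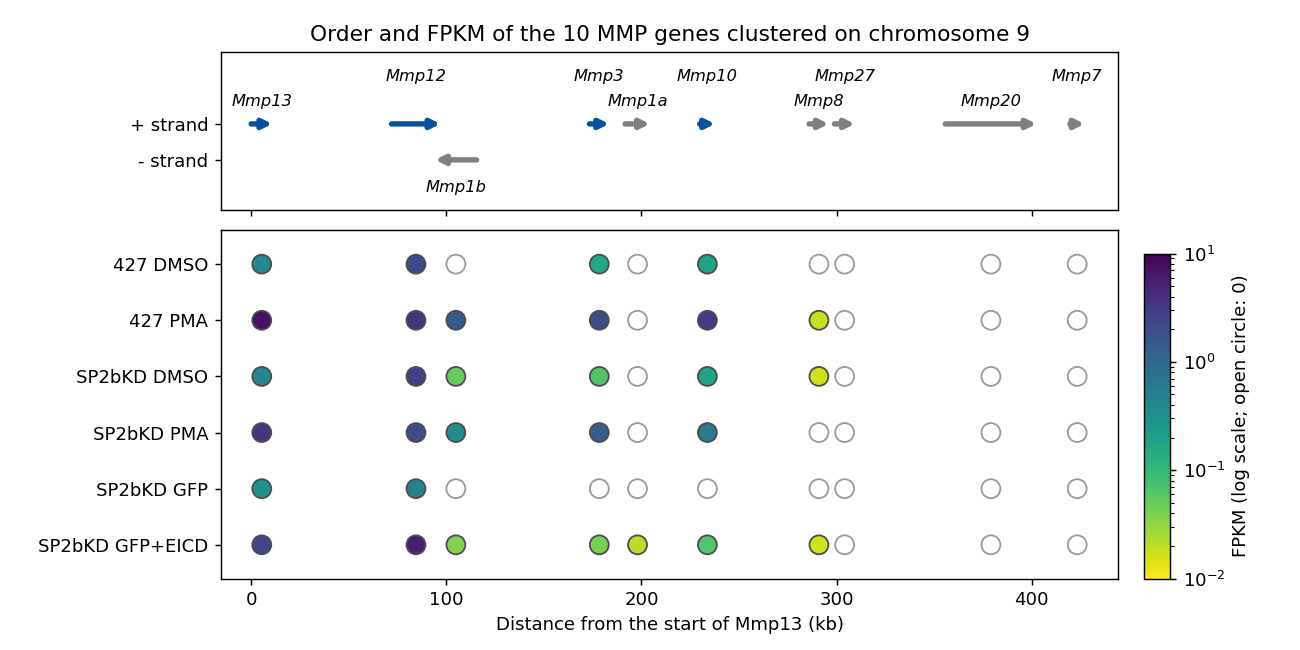
The 10 MMP genes of chromosome 9 by distance from the start of Mmp13 in kb (x axis), with arrows for position and strand above (blue, genes of the set) and, below, circles coloured by FPKM on a log scale for each library (open, listed at 0). Mmp13, Mmp3 and Mmp10 are darkest in 427 cells with PMA and Mmp12 with EICD, and the genes to the right of Mmp10 are at or near 0 in all libraries.

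Because FPKM is per length, levels can be compared between genes. Mmp23 was looked for but not found by symbol, so no sum includes it. Over 22 MMP genes the FPKM summed to 82.1, 99.7, 72.4, 78.4, 61.9 and 80.1, and Mmp14 alone held 54.5%, 65.0%, 53.0%, 72.6%, 58.8% and 42.9% of it. The chromosome 9 group held 3.64%, 17.7%, 4.87%, 10.0%, 1.23% and 10.4%. Mmp14 was thus the leading MMP transcript in all 6 libraries, and the genes with the largest folds remained a minority of the MMP total. The 4 TIMP genes summed to 251, 331, 233, 292, 199 and 185, which was 3.05, 3.32, 3.21, 3.73, 3.22 and 2.31 times the MMP sum. The lowest ratio was that of the EICD library. Timp1 held 32.7%, 61.8%, 30.3%, 60.5%, 40.1% and 31.2% of the TIMP sum, and was the larger part with PMA only.

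Most of the rest of that sum was Timp2, which also takes part in the activation of proMMP2 by Mmp14, at 167, 125, 162, 115, 118 and 125. It differed less than 2-fold in every comparison. Timp4 and Reck, a membrane-anchored inhibitor, were at 0.0472 or less, and the general protease inhibitor A2m at 0.00685 or less. Of 14 further MMP genes in the files, 13 were under 1 in all libraries and 4 (Mmp7, Mmp16, Mmp20 and Mmp27) were listed at 0 in all 6. Mmp1b, an interstitial collagenase-like gene, reached 1 in 427 cells with PMA alone, and Mmp9 (gelatinase B) came close there, with 0.188, 0.978, 0.0713, 0.454, 0.0249 and 0.0224. Mmp2 (gelatinase A), the substrate of Mmp14, was between 0.488 and 0.858.

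Of 11 genes for proteases that activate proMMPs, 6 were at an FPKM of 1 or more. Furin, the proprotein convertase that matures Mmp11, Mmp14, Mmp15 and Mmp28, was between 37.6 and 52.7. Plau (urokinase), which makes plasmin from plasminogen, was at 28.5, 78.6, 24.8, 38.2, 37.3 and 37.8. It was the 1 higher gene of these 6 with PMA in 427 cells (2.75-fold, log2 1.46), where 3.91% of all loci were. It was also the 1 lower in the SP2bKD library with PMA (0.487 of 427 cells, -1.04), where 2.75% of all loci were. Plg, plasminogen itself, was listed at 0 in all 6 libraries. St14 was at 85.6, 105, 81.8, 100.4, 69.6 and 615. It was the 1 gene of this list that was higher with EICD, where 3.58% of all loci were. The transcript of the EICD construct cannot be told apart from that of the cells.

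Of 16 genes for AP-1 and Ets factors, 13 were at the minimum in either PMA comparison. Among these, 5 were higher with PMA in 427 cells (Fos, Fosb, Fosl1, Junb and Etv5), where 3.91% of all loci were. In the SP2bKD libraries 6 were higher (the same and Ehf), where 3.51% of all loci were. None was lower, where 4.67% and 5.69% of the loci were. Fosl1 (Fra-1) was at 4.71, 73.8, 1.92, 49.5, 16.7 and 27.8. Fos was at 1.11, 5.93, 0.823, 2.54, 148 and 244, and Junb at 46.9, 95.1, 29.7, 61.1, 103 and 178. The PMA libraries were highest in Fosl1 and the sorted libraries in Fos and Junb, including the GFP library, in which Mmp3 and Mmp10 were listed at 0. With PMA, Fos, Fosb and Ehf were lower in the SP2bKD library than in 427 cells, and with DMSO Fosl1 and Ehf were. Of all loci 2.75% with PMA and 2.76% with DMSO were lower. The GFP library held 5 of the 13 at the minimum above 2-fold the level of the DMSO library (Fos, Fosb, Fosl1, Jun and Junb). Of all loci at the minimum, 3.56% were. With EICD 1 gene, Ehf, was counted as higher than with GFP (2.62 and 1.30), just past the limit, and 3.58% of all loci were. Smaller differences were common, as the median log2 fold change with EICD was 0.72 over the 13 genes at the minimum. Over all loci it was 0.07.

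The loci with the pattern most like each gene were taken as the 3 with the smallest root mean square difference of log2(FPKM + 0.1), centred over the 6 libraries. They were Hgf (0.197), Plekhs1 (0.377) and Ptpn22 (0.428) for Mmp3, and Plekhs1 (0.489), Mmp1b (0.503) and Il1f6 (0.556) for Mmp10. For Mmp13 they were Nos2 (0.370), Arid5a (0.528) and Cxcl10 (0.581), and for Mmp12 Lonrf3 (0.403), Ndrg1 (0.442) and Acox2 (0.566). Myo1e (0.0367) was closest to Mmp14, Psd3, Rasa3 and Cercam (0.112 or less) to Mmp15, Notch3 (0.136) to Mmp28, B430305J03Rik (0.114) to Timp1 and Pcnx (0.122) to Timp3. Among the 10 genes themselves the closest pair was Mmp14 and Timp1 (0.368), followed by Mmp11 and Mmp15 (0.497).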

How the data were processed

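Conditions were taken from the sample labels. Paired-end reads of 100 bases were made from poly(A) RNA. Per the labels and the study's methods, the authors aligned them and deposited FPKM from Cufflinks and Cuffdiff (2.1.1), 1 value per locus and library, on GRCm38; the processing notes list both TopHat2 (2.1.1) and STAR (2.4.0b). Locus models were partly assembled, so a locus can include sequence beyond the annotated gene. Log2 fold changes were computed in Python 3.11.15 (NumPy 2.4.6, pandas 2.3.3, SciPy 1.17.1, matplotlib 3.10.9), with 0.01 added to both libraries, or to the EICD library only for EICD against GFP, where the study's methods add 0.001. That amount was tried as an alternative. Higher and lower mean a difference of more than 2-fold where either library reached an FPKM of 1. No fold was given against a library listed at 0, and no p-value was computed with 1 library per condition. Depth was estimated from the steps of low FPKM in 2900 single-transcript genes, where 53.4% to 60.3% of low values lay within 0.15 of a whole fragment, against 30% if uniform, and the method was tested on simulated data. Fragments per gene used the longest GENCODE M21 transcript and are upper estimates, so intervals (95%, exact Clopper-Pearson) are too narrow where shorter transcripts are expressed, and they cover counting error only. Promoters came from RefSeq (GRCm38.p6), which held all 10 genes. Alternatives changed the amount added, the minimum FPKM, the scaling and the loci used. All 10 genes were to be named; genes of the other lists could be named when counted, and inhibitors always, except that the loci most like Mmp11 are not reported here. The members and lists were chosen with earlier results of these data known.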

Additional observations from a re-analysis of the deposited data

Results flagged for a closer look

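The change of Mmp12 with PMA had opposite signs in the lines. It was 1.60-fold higher in 427 cells and at 0.727 of its DMSO level in the SP2bKD libraries, a log2 difference of 1.141. Timp3 also had opposite signs, with a log2 difference of -0.2686, and its counting intervals included no change in both lines. Each line has 1 library per treatment, and neither difference was tested.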

How the results depend on the processing

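The counts of genes of the set had 88 values under other settings, of which 81 lay within 1.5 times the given count. With 1 added to both libraries, SP2bKD against 427 cells gave 0 lower genes with DMSO and 1 with PMA, and GFP against DMSO gave 0 higher genes. With a minimum FPKM of 0.1, there were 2 lower genes in SP2bKD against 427 cells with DMSO and 2 in GFP against DMSO, and without a minimum 2 and 3. Of 408 log2 values, 381 lay within the counting interval of the given value, and 1 changed sign, that of Mmp14 in GFP against DMSO under median ratio scaling (0.0035). With 1 added, PMA in 427 cells gave 1.41 for Mmp3, 1.79 for Mmp10 and 2.57 for Mmp13. Counts over all loci moved more than 1.5 times in 34 of 88 settings. With 1 added, the lower loci numbered 189 in place of 497 for PMA in 427 cells and 275 in place of 605 in the SP2bKD libraries, and for EICD the higher numbered 179 in place of 382 and the lower 19 in place of 54. For SP2bKD against 427 cells, 197 higher and 157 lower replaced 333 and 295 with DMSO, and 114 and 161 replaced 230 and 289 with PMA, while GFP against DMSO gave 246 and 211 in place of 380 and 442. A minimum of 0.1 gave between 356 and 1285 loci, and no minimum between 751 and 2018, in place of 54 to 605, as more loci of few fragments were counted. The cause of the other changes was not tested. Depth limits Mmp3 and Mmp10 most, with under 10 estimated fragments in each library without PMA.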

Other observations

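The ADAMTS genes encode secreted metalloproteinases of a related family, several of which cleave proteoglycans. Of 19 in the files, 5 or 6 were at the minimum FPKM in each comparison. Adamts4, an aggrecanase, was at 0.855 and 2.92 in 427 cells with DMSO and PMA and at 1.99 and 6.08 in the SP2bKD libraries. It was thus 3.38-fold and 3.05-fold higher with PMA. It was also more than 2-fold higher in the SP2bKD library under both treatments, as no gene of the MMP and TIMP set was. Of all loci 3.11% with DMSO and 2.19% with PMA were higher there. With DMSO it reached the minimum through the SP2bKD library alone, and its dependence on the amount added was not tested. Adamts6 was lower with PMA in both lines, at 0.449 and 0.388 of its DMSO level, and Adamts7 was lower in 427 cells, at 0.346. With EICD, Adamts18 was 3.45-fold higher than with GFP (1.49 against 0.433) and Adamts5 was at 0.426 of its GFP level (1.23 against 2.91). In the GFP library Adamts5 was at 0.283 and Adamts6 at 0.474 of the DMSO library of the same line, and Adamts1 was 2.47-fold higher, at 93.5 against 37.8.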
